A study of Mus musculus with 36 samples.

Results

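Serine synthesis and the folate one-carbon cycle were followed through the mRNA of 9 enzymes in mouse embryonic fibroblasts under 2 stresses. The genes were taken by symbol from a table of 54735 gene symbols: Phgdh, Psat1 and Psph of serine synthesis, Shmt1 and Mthfd1 of the cytosolic folate cycle, and Shmt2, Mthfd2, Mthfd1l and Aldh1l2 of the mitochondrial one. All 9 were among the 16083 genes with at least 1 TPM (a transcript level per length, with a fixed total in each library) in at least 3 libraries, which were the genes tested.

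Fibroblasts labelled MEF came in 3 genotypes: WT, GCN2 delete and PERK delete. Each was left without treatment, given the solvent DMSO, put in medium without lysine and arginine (amino acid starvation, AAS), or exposed to thapsigargin at 200 nM, which empties the calcium store of the endoplasmic reticulum (ER); the stresses lasted 6 h. Each of the 12 groups held 3 libraries, 36 in all, which the labels number as technical replicates, and only 1 line per genotype is named. Genotype and cell line therefore cannot be told apart, and every p-value below measures the spread between technical replicates alone. GCN2 (Eif2ak4) is the kinase that senses uncharged tRNA and PERK (Eif2ak3) is the kinase that senses unfolded protein in the ER; which exons were deleted is not given in the labels, and they name no control for the change to starvation medium.

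Serine is made from an intermediate of glycolysis in 3 steps, by the dehydrogenase Phgdh, the aminotransferase Psat1 and the phosphatase Psph. Serine hydroxymethyltransferases, Shmt1 in the cytosol and Shmt2 in mitochondria, move a carbon from serine to tetrahydrofolate and release glycine; Mthfd2 and Mthfd1l carry that carbon to formate in mitochondria, Mthfd1 takes formate up into the cytosolic folate pool, and Aldh1l2 oxidises the mitochondrial formyl carbon to carbon dioxide. Both kinases phosphorylate eIF2alpha, which favours translation of the transcription factor ATF4, and several serine and folate enzymes are known ATF4 targets.

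Across the libraries the sum of TPM was 999999.83 to 1000000.09, mitochondrially encoded RNA took 4.27 to 9.49% and microRNA genes 0.596 to 2.81%; TPM keeps no read depth, so no counting interval can be given. Libraries of a group correlated at 0.9621 to 0.9876 on the log2 scale. Eif2ak4 stood at 18.4 to 28.1 TPM in the WT libraries, 19.0 to 25.1 in the PERK-deleted line and 4.54 to 7.89 in the GCN2-deleted line. Eif2ak3 was lower in the untreated PERK-deleted line (4.22 ± 0.353 TPM, mean ± SD, n = 3 here and for every group) than in untreated WT cells (6.99 ± 0.878), and was still present. The starved libraries of the 2 lines overlapped (3.41 to 4.24 and 3.82 to 4.20 TPM), and with thapsigargin Eif2ak3 stood at 8.06 to 9.26 TPM in the PERK-deleted line, above untreated WT cells, and at 10.8 to 13.0 TPM in WT. Of 14 fibroblast markers 12 reached 1 TPM in 3 libraries, among them Col1a2, Fn1 and Vim, while Lum stayed below 1 TPM in every library. Fap and Dcn were low, with medians of 0.13 and 0.424 TPM over the libraries. Col1a1 (8.94 to 1589 TPM), Col3a1 (0.203 to 270) and Pdgfra (0.206 to 33.1) varied widely. The summed level of the 14 was 3371 to 4736 TPM in WT libraries, 5687 to 6905 in the GCN2-deleted line and 2990 to 3572 in the PERK-deleted line. Vim alone stood at 1394 to 3184 TPM. Summed markers of leukocytes, endothelium, epithelium, muscle and pluripotent cells reached at most 10.7 TPM in any library, and their part in the results was not tested. In such cultures fewer cells of a kind and less RNA per cell cannot be told apart.

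The 9 genes lie at separate loci: Phgdh on chromosome 3 from 98313171 to 98339969, Psat1 on 19 from 15905123 to 15925059, Psph on 5 from 129765558 to 129787443, Shmt1 on 11 from 60788897 to 60811265, Mthfd1 on 12 from 76254406 to 76319820 and Mthfd2 on 6 from 83305704 to 83326011 (RefSeq, GRCm38.p6). Chromosome 10 carries the other 3, Mthfd1l from 3972892 to 4167081, Aldh1l2 from 83487447 to 83534146 and Shmt2 from 127517123 to 127522444. All are annotated as protein coding. RefSeq promoter windows, 250 bases before to 50 after a start, were matched for 8 of the 9 genes, all but Aldh1l2. Since 8 of the 9 rose in WT cells under both stresses while Mthfd1 did not pass the test (below), the windows were searched on both strands for TGATGNAA, a form of the element that ATF4 binds with C/EBP proteins. It was in 0 of the 9 windows of these 8 genes, against 3.97% of all 32851 windows and 2.16% of the 12900 windows of tested genes, and the stricter TGATGCAA was in 0 of 9 against 0.895% and 0.566%. A match is only a string of letters, and no match says only that these letters are not in this window; sites further out or within introns were not searched.

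The letters GATTGG, an inverted CCAAT box (a common promoter element) with a G before it, were chosen after the windows had been read. CCAAT boxes without this G were not counted, and such boxes stand in lower case in the Psph and Mthfd2 bases below. GATTGG was found once on either strand in the windows of 6 of the 8 genes, Phgdh, Psat1, Psph, Shmt1, Mthfd1 and Mthfd2. The share with it was 16.1% over all windows and 20.6% over those of tested genes. The 120 bases before the start are shown for 3 genes that rose in WT cells and for Mthfd1, which did not pass the test there, because the same letters (in capitals, in either orientation) stand in both kinds. They are written 5′ to 3′ on the strand of the gene: Phgdh at chr3:98339970-98340089 (minus), Psph at chr5:129787254-129787373 (minus), Mthfd2 at chr6:83317605-83317724 (minus) and Mthfd1 at chr12:76255112-76255231 (plus). For Psph, Mthfd2 and Mthfd1 the start that the window uses lies inside the span of the gene given above, so it is not the outermost annotated one; which start these cells use was not tested.
Phgdh: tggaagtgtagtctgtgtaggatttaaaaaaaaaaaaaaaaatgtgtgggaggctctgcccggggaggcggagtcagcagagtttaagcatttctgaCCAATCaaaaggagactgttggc
Psph: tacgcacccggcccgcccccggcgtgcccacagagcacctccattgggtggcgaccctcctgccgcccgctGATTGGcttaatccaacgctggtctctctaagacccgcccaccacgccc
Mthfd2: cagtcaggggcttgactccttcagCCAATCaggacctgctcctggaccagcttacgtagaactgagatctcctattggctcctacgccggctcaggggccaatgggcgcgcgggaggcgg
Mthfd1: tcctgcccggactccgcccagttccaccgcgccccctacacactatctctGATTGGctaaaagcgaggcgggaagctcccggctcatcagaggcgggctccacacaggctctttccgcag

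In untreated WT cells the most abundant of the 9 mRNAs were Phgdh (495 ± 72.7 TPM), Psat1 (483 ± 25.1) and Shmt2 (473 ± 26.7). Mthfd2 (154 ± 5.99), Mthfd1 (108 ± 5.11), Psph (90.3 ± 7.75), Shmt1 (79.1 ± 7.87), Mthfd1l (69.7 ± 7.88) and Aldh1l2 (60.7 ± 13.0) followed. The sum over the 9 mRNAs was 1948 to 2096 TPM in untreated WT libraries, 1359 to 1388 in the GCN2-deleted line and 1490 to 1632 in the PERK-deleted line. Starved WT libraries held 3313 to 3525 TPM, the highest sum of any group, and starved GCN2-deleted libraries 1235 to 1290, the lowest.

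**Figure D1:**
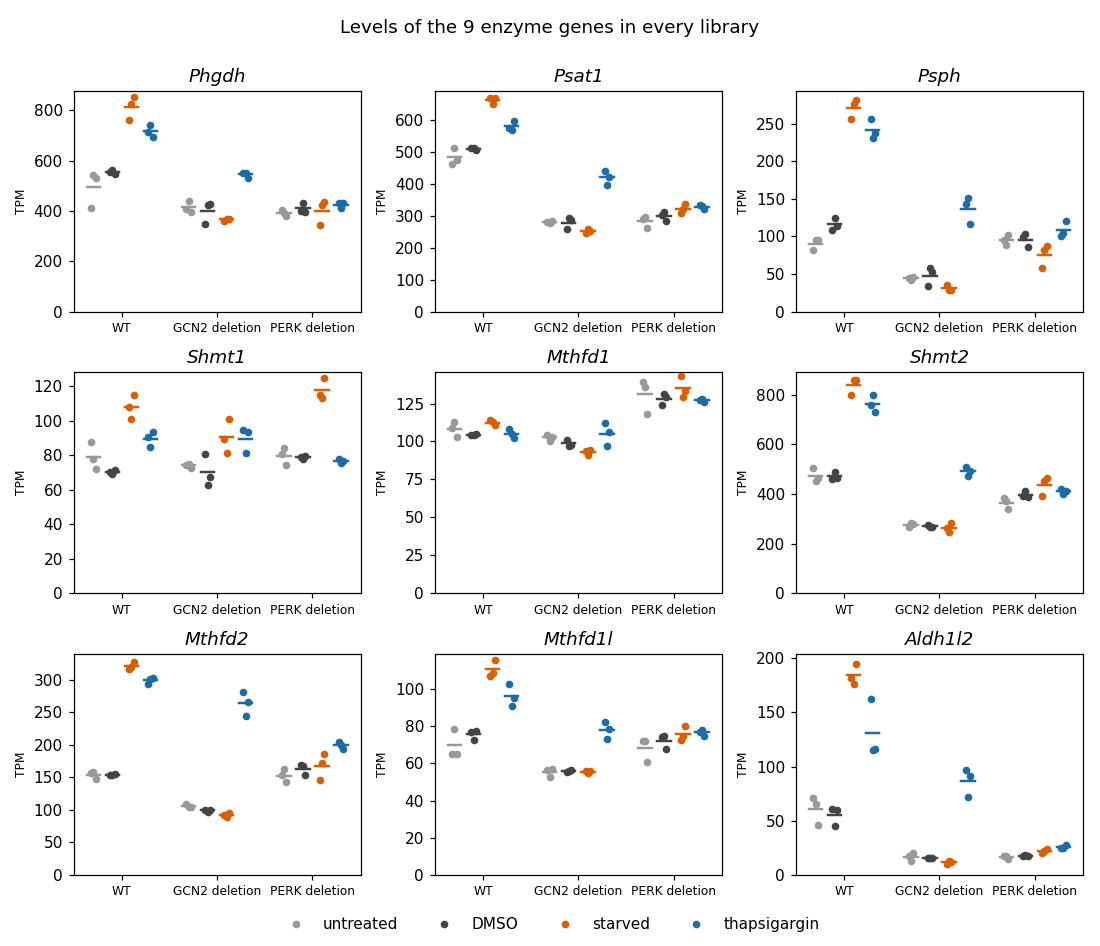
TPM of the 9 enzyme mRNAs (vertical axes, linear from 0) in each of the 36 libraries, as points by line and treatment with a bar at the mean of 3 libraries. In WT cells the starved libraries stand above the untreated ones and the thapsigargin libraries above the DMSO ones for 8 genes, and they overlap for Mthfd1; in the GCN2-deleted line the thapsigargin libraries stand above the DMSO ones for the same 8 genes and overlap them for Mthfd1, and the starved libraries stand above the untreated ones without overlap for Shmt1 only.

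The first question was whether lysine and arginine starvation moved these mRNAs in WT cells. Of the 9, 8 rose and Mthfd1 did not pass the test, where 12.5% of all genes tested rose and 17.3% fell (limma on log2(TPM + 1), adjusted p under 0.05 over all genes tested). The median log2 change of the 9 was 0.72 and that of all genes −0.047. For each of the 8 that rose, the 3 starved libraries all lay above the 3 untreated ones.

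Among the 3 serine synthesis enzymes the log2 change was largest at the last step. Psph was at 81.4, 94.9 and 94.7 TPM untreated and at 256, 276 and 281 TPM starved, a log2 change of 1.58 ± 0.146 (SE; adjusted p 1.47e-09), or 3.0-fold between means. The first step, Phgdh, went from 412, 544 and 530 TPM to 763, 824 and 852 TPM, a log2 change of 0.72 ± 0.0859 (adjusted p 1.49e-07). The lowest untreated Phgdh value, 412 TPM, belongs to the library with the highest share of mitochondrially encoded RNA (9.49%). Psat1, the middle step, changed by 0.45 ± 0.0522 (adjusted p 8.35e-08), from 463, 511 and 476 TPM to 668, 649 and 670 TPM.

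All 4 mitochondrial folate enzymes rose. Aldh1l2, which ends the mitochondrial branch as carbon dioxide, was at 70.7, 65.4 and 46.1 TPM untreated and at 182, 176 and 195 TPM starved (log2 change 1.61 ± 0.154, adjusted p 2.73e-09). Mthfd2, the dehydrogenase and cyclohydrolase of the branch, was at 157, 158 and 147 TPM and then at 316, 319 and 328 TPM, 2.08-fold higher (log2 change 1.05 ± 0.062, adjusted p 1.37e-13). Both pairs of groups are far apart. Shmt2 went from 503, 453 and 462 TPM to 798, 859 and 859 TPM (0.83 ± 0.0597, adjusted p 1.02e-11), and Mthfd1l, the formate-releasing synthetase, from 65.2, 78.8 and 65.0 TPM to 107, 109 and 116 TPM (0.66 ± 0.0682, adjusted p 1.09e-08).

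The cytosolic pair parted. Shmt1 was at 87.5, 77.8 and 71.9 TPM untreated and at 108, 101 and 115 TPM starved, a rise of 0.45 ± 0.0813 on the log2 scale (adjusted p 8.03e-05). Mthfd1, the cytosolic enzyme that joins formate to tetrahydrofolate, was at 109, 113 and 103 TPM and then at 114, 113 and 111 TPM. The groups overlap, and the interval of the Mthfd1 change (95%, from −0.05 to 0.16 on the log2 scale) leaves out changes of the size seen for the other 8. As described by the ratio of the 2 mRNAs in each library, Mthfd2 stood at 1.39 to 1.45 times Mthfd1 untreated and at 2.77 to 2.96 times starved. The ratio of Shmt2 to Shmt1 was 5.75 to 6.42 in untreated and 7.39 to 8.48 in starved libraries.

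In the GCN2-deleted line starvation gave another picture: 4 of the 9 fell, 1 rose and 4 did not pass, where 11.7% of all genes rose and 12.1% fell. The median change of the 9 was −0.16, against −0.001 for all genes. The changes were small beside the WT rises. Psph was at 45.1, 42.3 and 45.6 TPM untreated and at 35.8, 29.1 and 28.7 TPM starved (log2 change −0.50 ± 0.146, adjusted p 0.0126). Aldh1l2 went from 17.0, 12.6 and 20.0 TPM to 10.2, 12.4 and 11.3 TPM (−0.49 ± 0.154, adjusted p 0.019), and Mthfd2 from 109, 104 and 104 TPM to 91.6, 88.7 and 95.2 TPM (−0.20 ± 0.062, adjusted p 0.0173). Psat1 went from 282, 278 and 284 TPM to 246, 259 and 252 TPM (−0.16 ± 0.0522, adjusted p 0.0284).

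In each of these 4 the starved libraries lay below the untreated ones without overlap, but each call depended on single libraries. Without starved replicate 2 or 3 the Psph change was −0.45 in both cases (adjusted p 0.0566 and 0.0613). The Mthfd2 call was lost without starved replicate 2 (adjusted p 0.0793) or untreated replicate 1 (0.075), and, against DMSO instead of untreated cells, the change was −0.11 (0.27). The Psat1 call was lost without any one of 5 of the 6 libraries, all but starved replicate 2 (highest adjusted p 0.106), and the Aldh1l2 call without starved replicate 1 (0.0826), untreated replicate 1 (0.0667) or untreated replicate 3 (0.125).

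Shmt1 was the 1 member that rose with starvation in the GCN2-deleted line, from 74.6, 75.1 and 72.6 TPM to 89.3, 81.1 and 101 TPM (log2 change 0.28 ± 0.0813, adjusted p 0.0123). Without starved replicate 3 its change was 0.20 (adjusted p 0.116). Phgdh (−0.17), Mthfd1 (−0.14, adjusted p 0.0524), Shmt2 (−0.07) and Mthfd1l (0 to 2 decimals, interval −0.14 to 0.14) did not pass.

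In the PERK-deleted line 3 of the 9 rose with starvation and 6 did not pass, where 5.67% of all genes rose and 6.32% fell; the median change was 0.15 for the 9 and −0.017 for all genes. Shmt1 changed most among the 3, from 80.5, 84.2 and 74.3 TPM to 115, 113 and 125 TPM (log2 change 0.56 ± 0.0813, adjusted p 1.68e-05). Shmt2 went from 382, 373 and 338 TPM to 390, 453 and 465 TPM (0.26 ± 0.0597, adjusted p 0.00403) and Psat1 from 290, 297 and 261 TPM to 308, 322 and 336 TPM (0.19 ± 0.0522, adjusted p 0.0164). Against DMSO the Shmt2 change was 0.13 (adjusted p 0.18) and the Psat1 change 0.10 (0.241), and the Psat1 call was also lost without starved replicate 3 (0.088) or untreated replicate 3 (0.12).

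The 3 starved PERK-deleted libraries were not alike. Replicate 1 was the lowest of the 3 for Phgdh (343 TPM against 424 and 436), Psph (58.2 against 81.9 and 87.5), Shmt2 (390 against 453 and 465) and Mthfd2 (146 against 172 and 185), and it held 4.33% mitochondrially encoded RNA, where the other two held 7.80 and 7.97%; the part of this in the results was not tested. Mthfd2 did not pass with all libraries (0.13, adjusted p 0.188) and rose by 0.23 without that library (adjusted p 0.00842). Aldh1l2, at 17.6, 17.5 and 14.4 TPM untreated and 20.0, 22.3 and 24 TPM starved, changed by 0.40 (interval 0.09 to 0.72). It did not pass (adjusted p 0.0922), though its groups do not overlap. Psph changed by −0.34 (interval −0.64 to −0.04) and did not pass (adjusted p 0.138). Its starved libraries lay below the untreated ones (88.4 to 102 TPM) without overlap.

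**Figure D2:**
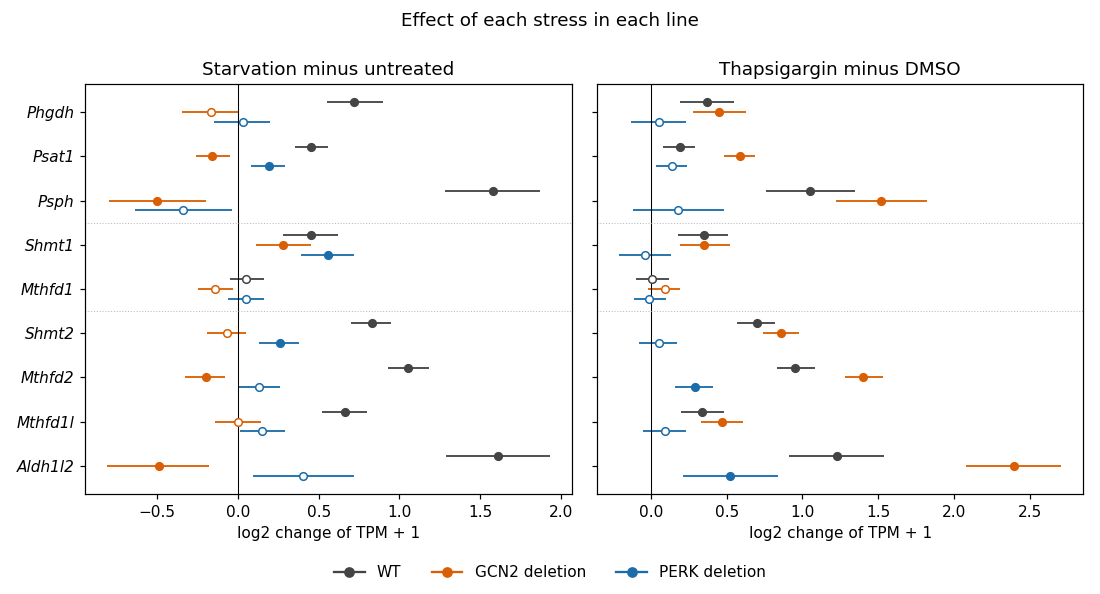
Log2 change of TPM + 1 with its 95% interval for each of the 9 genes, starvation minus untreated on the left and thapsigargin minus DMSO on the right, in the 3 lines; filled points have an adjusted p under 0.05. With starvation 8 WT points lie well to the right and only Shmt1 is filled to the right in all 3 lines; with thapsigargin the WT and GCN2-deleted points lie to the right for 8 genes and the PERK-deleted points near 0, with Mthfd2 and Aldh1l2 filled.

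The difference in response between lines was tested directly. The starvation response was lower in the GCN2-deleted line than in WT for 7 of the 9, where 4.07% of all genes had a lower and 3.64% a higher response. The differences of log2 changes ran from −0.61 ± 0.0738 for Psat1 (adjusted p 8.24e-07) to −2.10 ± 0.217 for Aldh1l2 (5.15e-08), with −2.07 ± 0.206 for Psph (2.59e-08) and −1.26 ± 0.0877 for Mthfd2 (1.91e-11). Shmt1 (−0.17, interval −0.41 to 0.07) and Mthfd1 (−0.19, interval −0.34 to −0.04, adjusted p 0.122) did not pass; the Mthfd1 difference passed after median-of-ratios rescaling of the libraries (−0.24, 0.0121) and after quantile normalization (−0.21, 0.0209).

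The same 7 genes had a lower starvation response in the PERK-deleted line than in WT, where 5.28% of all genes had a lower and 5.53% a higher response; both sets of differences share the WT libraries. Psph differed by −1.92 ± 0.206 (adjusted p 1.17e-07), Aldh1l2 by −1.21 ± 0.217 (0.000252), Mthfd2 by −0.92 ± 0.0877 (1.18e-08) and Psat1 by −0.27 ± 0.0738 (0.0162). Shmt1 differed by 0.11 (interval −0.13 to 0.34) and did not pass. The Psat1 difference was lost without untreated PERK-deleted replicate 2 (−0.23, adjusted p 0.059). Between the deletion lines 4 genes responded higher to starvation in the PERK-deleted line, Aldh1l2 (0.90 ± 0.217, adjusted p 0.015), Psat1 (0.34, 0.00505), Mthfd2 (0.33, 0.026) and Shmt2 (0.32, 0.0242), where 2.01% of all genes did and 2.19% responded lower. With DMSO as the control none of these 4 passed (adjusted p 0.0726 to 0.554), and 2 of the calls were lost when single libraries were left out. For Shmt2 these were starved GCN2-deleted replicates 1 and 2, untreated GCN2-deleted replicate 2, starved PERK-deleted replicates 2 and 3 and untreated PERK-deleted replicate 3 (adjusted p 0.0506 to 0.0823). For Mthfd2 they were starved GCN2-deleted replicate 2, untreated GCN2-deleted replicate 1, starved PERK-deleted replicates 2 and 3 and untreated PERK-deleted replicate 3 (0.0672 to 0.0876).

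**Figure D3:**
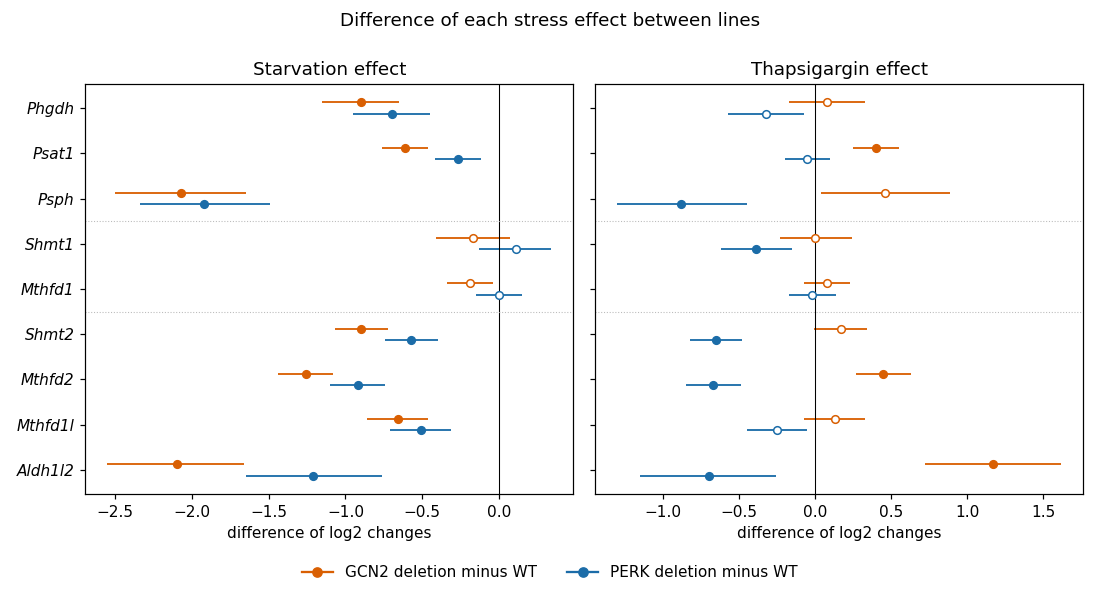
Difference between a deletion line and WT in the log2 response of each of the 9 genes, with its 95% interval, for starvation on the left and thapsigargin on the right; filled points have an adjusted p under 0.05. On the left 7 genes lie below 0 in both deletion lines; on the right the filled PERK-deleted points, those of 5 genes, lie below 0 and the filled GCN2-deleted points, those of Psat1, Mthfd2 and Aldh1l2, above it.

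Thapsigargin, set against its solvent DMSO, raised the same 8 genes in WT cells that starvation did, where 11.4% of all genes rose and 14.8% fell. The median change was 0.37 for the 9 and −0.043 for all genes. Psph was at 109, 125 and 114 TPM with DMSO and at 256, 231 and 238 TPM with thapsigargin (log2 change 1.05 ± 0.146, adjusted p 2.01e-06). Aldh1l2 went from 60.6, 45.1 and 59.8 TPM to 162, 115 and 116 TPM (1.23 ± 0.154, adjusted p 4.04e-07), and Mthfd2 from 153, 154 and 155 TPM to 294, 301 and 303 TPM (0.95 ± 0.062, adjusted p 1.3e-12). None of these groups overlap. Shmt2 rose by 0.70 (adjusted p 3.75e-10), Phgdh by 0.37 (0.00156), Mthfd1l by 0.34 (0.000331) and Psat1 by 0.19 (0.00801).

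Shmt1, at 70.5, 68.9 and 71.2 TPM with DMSO and at 90.8, 84.9 and 93.2 TPM with thapsigargin, rose by 0.35 ± 0.0813 (adjusted p 0.00172). Set against untreated WT cells, which spread from 71.9 to 87.5 TPM, its change was 0.18 (adjusted p 0.0798). Mthfd1, at 104, 104 and 105 TPM and then 108, 105 and 102 TPM, changed by 0.01 (interval −0.10 to 0.12).

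The 2 stresses were compared within WT cells. Starvation gave a higher response than thapsigargin for Psat1 (difference 0.27 ± 0.0738, adjusted p 0.0148) and Mthfd1l (0.32 ± 0.0965, 0.0252), where 5.71% of all genes were higher and 6.12% lower. With the controls exchanged, so that each stress was set against the other's control, the Psat1 difference was 0.11 (0.286) and the Mthfd1l difference 0.07 (0.633). Under that exchange Shmt1 (0.43, 0.00837) and Aldh1l2 (0.63, 0.0375) passed, where with the first controls they had not (0.10, 0.665, and 0.38, 0.292). Leaving out single WT libraries also ended the Mthfd1l call, 7 of the 12 in turn: starved replicate 3 (0.0735), DMSO replicates 1 and 3 (0.059 and 0.0658), untreated replicates 1 and 3 (0.0686 and 0.0706) and thapsigargin replicates 2 and 3 (0.0839 and 0.0544). Mthfd2 differed by 0.10 (interval −0.08 to 0.28) and Shmt2 by 0.13 (−0.04 to 0.30), neither past the threshold. Phgdh did not pass (0.35, adjusted p 0.058); it passed with the replicate block (0.0323), and with the controls exchanged its difference was 0.01 (0.971).

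In the GCN2-deleted line thapsigargin raised 8 of the 9 as well, where 25.4% of all genes rose and 11.2% fell. Median-of-ratios rescaling turned that split from 4085 higher and 1805 lower to 3059 and 3178, and the 8 calls stood under it. Aldh1l2 showed the largest change of any member in the 6 stress comparisons, from 15.1, 15.6 and 15.8 TPM with DMSO to 96.4, 71.8 and 91.1 TPM, 5.58-fold (log2 change 2.40 ± 0.154, adjusted p 8.48e-13). Psph went from 33.7, 57.9 and 52.7 TPM to 143, 151 and 117 TPM (1.52 ± 0.146, adjusted p 2.43e-09), and Mthfd2 from 99.5, 96.9 and 100 TPM to 281, 244 and 266 TPM (1.40 ± 0.062, adjusted p 2.05e-16). All of these are among the 4 genes that fell, by steps small beside the WT rises, when the same line was starved. Psat1 was the other.

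The other enzymes rose less in that line. Shmt2 went from 276, 265 and 268 TPM to 507, 473 and 494 TPM (0.86 ± 0.0597, adjusted p 4.04e-12), Psat1 rose by 0.59 (5.45e-10), Mthfd1l by 0.47 (3.2e-06), Phgdh by 0.45 (0.000118) and Shmt1 by 0.35 (0.00105). Mthfd1 changed by 0.09 (interval −0.02 to 0.19) and did not pass. Even so the level of Aldh1l2 with thapsigargin, 86.4 ± 12.9 TPM, stayed below the 131 ± 26.8 TPM of WT cells, and the libraries of the 2 groups did not overlap.

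In the PERK-deleted line 2 of the 9 rose with thapsigargin, where 2.49% of all genes rose and 2.75% fell; median-of-ratios rescaling turned the 400 higher and 443 lower genes to 609 and 443. The median change was 0.09 for the 9 and −0.038 for all genes. Mthfd2 was at 169, 168 and 153 TPM with DMSO and at 204, 200 and 194 TPM with thapsigargin (0.29 ± 0.062, adjusted p 0.00334). Aldh1l2 went from 17.1, 18.0 and 17.4 TPM to 24.6, 24.9 and 27.4 TPM (0.52 ± 0.154, adjusted p 0.0432); its groups do not overlap, but its call was lost without any one of the 6 libraries (adjusted p 0.0858 to 0.165) and with no filter on low values (0.09). Psph, at 98.7, 103 and 85.6 TPM and then 101, 104 and 120 TPM, changed by 0.18 (interval −0.12 to 0.48). Phgdh (0.05), Psat1 (0.14), Shmt1 (−0.04), Mthfd1 (−0.01), Shmt2 (0.05) and Mthfd1l (0.09) did not pass.

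The thapsigargin response was lower in the PERK-deleted line than in WT for 5 of the 9, where 7.31% of all genes had a lower and 5.56% a higher response. They were Psph (−0.88 ± 0.206, adjusted p 0.00408), Aldh1l2 (−0.70 ± 0.217, 0.0296), Mthfd2 (−0.67 ± 0.0877, 3.24e-06), Shmt2 (−0.65 ± 0.0844, 2.54e-06) and Shmt1 (−0.39 ± 0.115, 0.0235). Psat1 differed by −0.05 (interval −0.20 to 0.10) and did not pass. Phgdh (−0.32, interval −0.57 to −0.07, adjusted p 0.0853) and Mthfd1l (−0.25, interval −0.45 to −0.05, 0.0887) did not pass either. Against untreated cells these 2 did pass (−0.43, 0.0137, and −0.30, 0.0308). The Shmt1 and Aldh1l2 differences did not pass against untreated cells (−0.24, 0.149, and −0.49, 0.111). The Shmt1 call was also lost without PERK-deleted thapsigargin replicate 2 (0.0501) or WT thapsigargin replicate 3 (0.0624), and that of Aldh1l2 without any one of 6 libraries (0.0506 to 0.099): PERK-deleted DMSO replicates 2 and 3, PERK-deleted thapsigargin replicates 1 and 2, WT DMSO replicate 2 and WT thapsigargin replicate 1.

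Set against WT, the thapsigargin response of the GCN2-deleted line was higher for 3 genes, Aldh1l2 (1.17 ± 0.217, adjusted p 0.000746), Mthfd2 (0.45 ± 0.0877, 0.00117) and Psat1 (0.40 ± 0.0738, 0.000662), where 12.3% of all genes had a higher and 1.88% a lower response. In this comparison the median over all genes was 0.132, and −0.001 after median-of-ratios rescaling, which turned the split of all genes from 1974 higher and 302 lower to 1325 and 902. After it Aldh1l2 differed by 1.00 (adjusted p 0.000223) and Mthfd2 by 0.28 (0.0176), while Psat1 (0.23, 0.0512) no longer passed.

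Between the deletion lines 8 of the 9, all but Mthfd1, responded lower to thapsigargin in the PERK-deleted line, where 17.9% of all genes did and 5.18% responded higher; rescaling turned 833 higher and 2884 lower genes to 1811 and 1973. Aldh1l2 differed by −1.87 ± 0.217 (adjusted p 2.59e-07), Psph by −1.34 ± 0.206 (1.81e-05) and Mthfd2 by −1.12 ± 0.0877 (2.21e-10). After rescaling 6 of the 8 passed; Phgdh (−0.23, adjusted p 0.274) and Shmt1 (−0.22, 0.0997) did not. The Phgdh call was also lost without GCN2-deleted DMSO replicate 1 (−0.31, 0.057), and that of Shmt1 without GCN2-deleted DMSO replicate 2 (−0.32, 0.0562).

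DMSO alone moved none of the 9 past the threshold in any line. In limma, 1 member in WT, 0 in the GCN2-deleted line and 1 in the PERK-deleted line had an unadjusted p under 0.05. The shares of all genes that rose and fell were 0.0311% and 0.0497% in WT, 0.056% and 0.0808% in the GCN2-deleted line and 0.137% and 0.0995% in the PERK-deleted line. Psph in WT cells, at 81.4 to 94.9 TPM untreated and 109 to 125 TPM with DMSO, changed by 0.35 (interval 0.06 to 0.65, adjusted p 0.269).

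The lines also differed before any stress. In the untreated GCN2-deleted line 7 of the 9 were lower than in WT, where 23.2% of all genes were lower and 21.2% higher. Aldh1l2 stood at 12.6 to 20.0 TPM against 46.1 to 70.7 TPM in WT, 3.67-fold lower (log2 difference −1.82 ± 0.154, adjusted p 7e-11). Psph stood at 42.3 to 45.6 TPM against 81.4 to 94.9 TPM (−1.01 ± 0.146, 1.55e-06), Psat1 at 278 to 284 TPM against 463 to 511 TPM (−0.78 ± 0.0522, 4.87e-13) and Shmt2 at 268 to 284 TPM against 453 to 503 TPM (−0.77 ± 0.0597, 1.09e-11). Mthfd2 (−0.54), Mthfd1l (−0.32) and Phgdh (−0.25, adjusted p 0.0192) were lower too, and the cytosolic Shmt1 and Mthfd1 did not pass. Phgdh overlapped between the lines, and its call was lost without untreated WT replicate 2 (−0.18, 0.132) or 3 (−0.20, 0.092), or untreated GCN2-deleted replicate 1 (−0.24, 0.0573) or 3 (−0.22, 0.0713).

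In the untreated PERK-deleted line 4 were lower and Mthfd1 was higher, where 18.5% of all genes were lower and 31.1% higher; rescaling turned 5005 higher and 2976 lower genes to 4367 and 3932. Aldh1l2 was at 14.4 to 17.6 TPM (−1.80 ± 0.154, adjusted p 8.22e-11) and Psat1 at 261 to 297 TPM (−0.77 ± 0.0522, 5.85e-13). Shmt2 (−0.37 ± 0.0597) and Phgdh (−0.33 ± 0.0859) were lower by smaller steps. Psph (0.08, interval −0.22 to 0.38), Mthfd2 (−0.02, −0.14 to 0.11) and Mthfd1l (−0.03, −0.17 to 0.11) did not pass. Mthfd1, which passed in none of the 6 stress comparisons, stood at 139, 136 and 118 TPM against 103 to 113 TPM in WT (0.26 ± 0.0521, adjusted p 0.000108).

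Over the 12 groups Aldh1l2 had the widest range as a fold between lowest and highest mean. It ran from 11.3 TPM in starved GCN2-deleted cells to 185 TPM in starved WT cells. In TPM itself the range of Shmt2 was wider, from 264 to 839 in the same groups. Mthfd1 had a narrow range, from 93.1 to 135 TPM. Phgdh, Psat1, Psph, Shmt2, Mthfd2, Mthfd1l and Aldh1l2 were all highest in starved WT cells and second highest in WT cells with thapsigargin, and only for Psph did these 2 groups overlap. For 5 of the 7, Psph, Shmt2, Mthfd2, Mthfd1l and Aldh1l2, GCN2-deleted cells with thapsigargin came next; they did not overlap the group next below for Mthfd2 and Aldh1l2. Shmt1 had another order, with the 3 starved groups on top (118 TPM in the PERK-deleted line, 108 in WT and 90.5 in the GCN2-deleted line). The first 2 of them overlapped, and the third overlapped the GCN2-deleted cells with thapsigargin (89.7 TPM), which in turn overlapped WT cells with thapsigargin (89.6 TPM). Mthfd1 was highest in the 4 PERK-deleted groups, 127 to 135 TPM, whose 12 libraries (118 to 143 TPM) all lay above those of the other groups (at most 114 TPM).

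As a description over the 12 group means of log2(TPM + 1), which share lines and libraries, the 21 pairs among the 7 genes other than Shmt1 and Mthfd1 had correlations of 0.78 to 0.98 (median 0.92). Shmt1 correlated with the other 8 at 0.27 to 0.53 and Mthfd1 at −0.17 to 0.31. The genes most like each member were sought among 10298 whose mean reached 5 TPM in some group. Gene models without a conventional symbol (such as Gm, Rik, Mir and Snor names and numbered clones) were left out. Those most like Mthfd2 were the aminoacyl-tRNA synthetase genes Sars (0.991), Eprs (0.987) and Gars (0.984). Those most like Psph were Asns (asparagine synthetase, 0.981), Tlr2 (0.980) and Pck2 (mitochondrial phosphoenolpyruvate carboxykinase, 0.973). Cth, which makes cysteine from cystathionine, was the most like Mthfd1l (0.990) and the second most like Shmt2 (0.985, after Slc30a4 at 0.986). Mtbp and Ncbp1 led for Aldh1l2 (0.989 and 0.978) and Phgdh (0.968 and 0.971), Ebag9 for Psat1 (0.986), Shq1 for Shmt1 (0.948) and Txnrd2 for Mthfd1 (0.971).

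**Figure D4:**
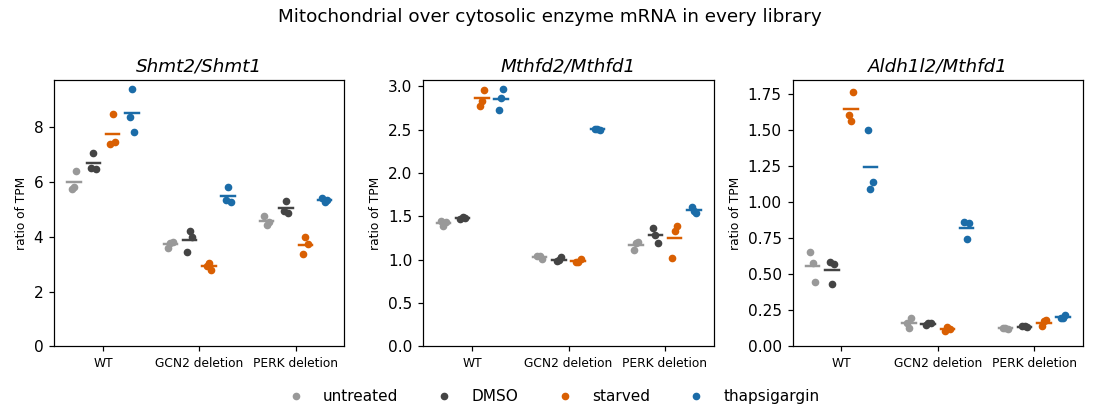
Ratio of a mitochondrial to a cytosolic enzyme mRNA (TPM over TPM, linear axes from 0) in each of the 36 libraries, as points with a bar at the mean of 3 libraries. Mthfd2 over Mthfd1 stands near 1.42 in untreated and 2.86 in starved WT cells, and near 1.00 with DMSO and 2.51 with thapsigargin in the GCN2-deleted line; Shmt2 over Shmt1 is higher with starvation in WT cells and lower with starvation in both deletion lines.

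The balance of mitochondrial and cytosolic mRNA, given as ratios with no test, differed between treatments. Mthfd2 over Mthfd1 was 0.973 to 1.01 in starved GCN2-deleted libraries, against 1.01 to 1.04 untreated. With thapsigargin it was 2.50 to 2.51 in that line against 0.981 to 1.03 with DMSO; in WT cells it was 1.47 to 1.49 with DMSO and 2.73 to 2.97 with thapsigargin. In the PERK-deleted line it was 1.19 to 1.37 with DMSO and 1.54 to 1.61 with thapsigargin. Shmt2 over Shmt1 was lower with starvation in both deletion lines, where Shmt1 had risen: 2.79 to 3.06 against 3.59 to 3.81 untreated in the GCN2-deleted line, and 3.39 to 4.0 against 4.43 to 4.75 in the PERK-deleted line. Aldh1l2 over Mthfd1 was 1.56 to 1.76 in starved WT libraries against 0.447 to 0.651 untreated, and at most 0.218 in any PERK-deleted library. In the GCN2-deleted line this ratio was 0.126 to 0.193 untreated, 0.148 to 0.162 with DMSO, 0.109 to 0.136 starved and 0.74 to 0.86 with thapsigargin.

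Atf4 mRNA was measured beside these genes. In WT cells it stood at 535, 562 and 579 TPM untreated and at 1074, 1083 and 1079 TPM starved (log2 change 0.95 ± 0.0481, adjusted p 5.69e-15). Starvation changed it by −0.04 without GCN2 and by 0.02 in the PERK-deleted line, neither past the threshold. Thapsigargin raised it in every line, by 1.33 in WT, 1.54 in the GCN2-deleted line and 0.57 in the PERK-deleted line (adjusted p 2.85e-18, 7.63e-20 and 1.35e-09). Untreated Atf4 was lower in both deletion lines (318 and 322 TPM on average) than in WT (558 TPM). TPM of Atf4 mRNA is not a measure of ATF4 protein.

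Another 48 genes around the 9 enzymes were described in 6 lists, of which 40 were tested and 8 were too low, among them Aldh1l1 (the cytosolic counterpart of Aldh1l2), Gldc and Cbs. Of 12 tested genes that carry or use serine and glycine, 4 rose with starvation in WT cells, where 12.5% of all genes did: Cth (log2 change 2.55 ± 0.083, adjusted p 5.37e-19), the glycine transporter Slc6a9 (2.51 ± 0.165, 1.41e-12), the neutral amino acid transporter Slc1a4 (1.66 ± 0.0874, 1.24e-14) and its relative Slc1a5 (0.84, 6.16e-05). Slc6a9 was at 32.6, 25.3 and 23.9 TPM untreated and at 150, 158 and 168 TPM starved. In the GCN2-deleted line Slc6a9 (−0.85, adjusted p 0.000328) and Slc1a4 (−0.72, 4.51e-07) fell with starvation, and 3 of the 12 fell in all, where 12.1% of all genes fell. In the PERK-deleted line 3 rose, Slc6a9 (0.84), Sfxn3 (0.32) and Cth (0.29), and 2 fell, Gcat (−0.42) and Sptlc1 (−0.25), where 5.67% of all genes rose and 6.32% fell. Starved replicate 1 of that line overlapped the untreated libraries for Sfxn3 (41.2 TPM against 34.9 to 43.8) and Cth (16.8 against 16.0 to 17.6). For Slc6a9 it stood just above them (18.8 against 13.4 to 18.2), where starved replicates 2 and 3 were at 36.3 and 33.0 TPM.

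With thapsigargin 4 of the 12 rose in WT cells, where 11.4% of all genes did. In the GCN2-deleted line 6 rose and 1 fell, where 25.4% of all genes rose and 11.2% fell, so that the 1 lower gene is near the share of all genes. Slc6a9 changed by 1.90 and 2.44, Cth by 1.89 and 2.36 and Slc1a4 by 1.37 and 1.70 in these lines in turn (adjusted p at most 4.53e-10 in WT and 2.58e-12 in the GCN2-deleted line). In the PERK-deleted line only Slc6a9 of this list passed (0.61, adjusted p 0.0237), where 2.49% of all genes rose.

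Among the genes of other folate conversions (5 tested) Mtfmt, the formyltransferase for mitochondrial initiator tRNA, fell with thapsigargin in both deletion lines (−0.33 and −0.37). It was the 1 gene of this list to fall in each, where 11.2% and 2.75% of all genes fell. In WT it went from 11.7 ± 1.02 to 10.1 ± 0.405 TPM and did not pass. No gene of the list differed in thapsigargin response between the GCN2-deleted line and WT. In the PERK-deleted line Mtfmt with thapsigargin (11.2 to 12.5 TPM) overlapped untreated cells (11.4 to 13.8), and DMSO libraries stood at 14.6 to 17.5. Of 6 tested genes of folate uptake and activation, the reduced folate carrier Slc19a1 rose with starvation in all 3 lines (0.85, 0.40 and 0.60) and the proton-coupled carrier Slc46a1 fell in all 3 (−0.55, −0.57 and −0.45). With starvation 2 of the 6 rose and 1 fell in WT (12.5% and 17.3% of all genes). In the GCN2-deleted line 3 rose and 1 fell (11.7% and 12.1%), and in the PERK-deleted line 1 rose and 1 fell (5.67% and 6.32%). The 1 lower gene is near the share of all genes in WT and the GCN2-deleted line. With thapsigargin Slc19a1 rose in WT (0.55) and the GCN2-deleted line (0.54) and fell in the PERK-deleted line (−0.31, adjusted p 0.00482). Of the 6, 1 rose in WT (11.4% of all genes) and 2 in the GCN2-deleted line (25.4%), counts near the shares of all genes. In the PERK-deleted line 1 fell (2.75%). The mitochondrial folate carrier Slc25a32 rose with starvation in WT (0.48) and the GCN2-deleted line (0.55).

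Purine and thymidylate synthesis spends the formyl and methylene carbon. Of its 7 genes Ppat, the first committed enzyme of purine synthesis, rose with starvation in all 3 lines (0.51 in WT, 0.61 in the GCN2-deleted line and 0.26 in the PERK-deleted line). With it 3 of the 7 rose in each line, but not the same 3: Gart and Atic in WT (12.5% of all genes rose), Paics and Atic in the GCN2-deleted line (11.7%) and Gart and Paics in the PERK-deleted line (5.67%). The median of the list was 0.12 to 0.18. With thapsigargin Paics fell in WT (−0.17), the 1 of the 7 that did, where 14.8% of all genes fell. In the GCN2-deleted line Paics fell (−0.30) and Ppat (0.24) and Adsl (0.21) rose. This is 1 lower and 2 higher of the 7, near the shares of all genes (11.2% and 25.4%). Median-of-ratios rescaling turned that split of all genes from 4085 higher and 1805 lower to 3059 and 3178. Its effect on this list is not given. In the methionine cycle (7 tested) only Mtrr rose with starvation in WT (0.47), where 12.5% of all genes rose. With starvation in the GCN2-deleted line Mat2b fell (−0.39) and Mat2a rose (0.29), 1 of the 7 each (12.1% and 11.7% of all genes). These counts are near the shares of all genes. With thapsigargin Mat2a fell in WT (−0.47), as 1 of 2 that fell (14.8% of all genes). In the GCN2-deleted line it was the 1 that fell (−0.70, 11.2% of all genes), and 1 rose (25.4%). With thapsigargin in the PERK-deleted line 1 rose (2.49%). Of the 3 tested genes of glycine cleavage, Dld rose (0.64) and Amt fell (−0.75) with starvation in WT cells, where 12.5% of all genes rose and 17.3% fell. In the GCN2-deleted line 1 of the 3 rose and 1 fell with starvation (11.7% and 12.1% of all genes) and likewise with thapsigargin (25.4% and 11.2%). Thapsigargin raised 1 of the 3 in WT cells (11.4% of all genes), and in the PERK-deleted line 0 passed under either stress. Dld is shared with other dehydrogenase complexes.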

How the data were processed

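RNA was sequenced from 36 libraries after Trizol extraction and a stranded TruSeq preparation, per the labels' protocols. The submitters' processing notes name FastQC, kallisto and mm10, with no versions or roles. The deposited table holds the TPM that the authors computed for each gene symbol; no depth is recorded, and a near-identical copy such as Phgdh-ps1 (at most 4.74 TPM) may share reads with its gene. Groups came from the sample titles. Values were set on the scale log2(TPM + 1), which understates changes of low genes. limma 3.58.1 (R 4.3.3) fitted a single linear model to the 12 groups (24 residual degrees of freedom, variance trend and robust prior), for 18 comparisons, on genes that reached 1 TPM in 3 or more libraries. Every adjusted p is limma's, Benjamini-Hochberg adjusted over all 16083 genes tested; "rose" and "fell" mean an adjusted p under 0.05. The model was tested on simulated data. The 9 genes, the lists and the tests were chosen with earlier results of these data known. Beyond the 9, Eif2ak4, Eif2ak3 and Atf4 were named. Other genes were drawn, per list and comparison, from the 2 with the largest rise and the 2 with the largest fall. Further ones came from the 3 most correlated with each of the 9. Not every gene that met these rules is named. Slc1a5, Aldh1l1, Gldc and Cbs were added after their values were seen. The results of 1 listed gene are not reported here. Alternatives were the other control, rescaling, quantile normalization, a pseudocount of 0.1, no filter or 5 TPM, no trend, array weights, only the groups compared, a replicate block, without 2 libraries of over 2% microRNA, the DMSO groups for the line difference, and leaving out each library. Figures were drawn with matplotlib 3.10.9.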

Additional observations from a re-analysis of the deposited data

Results flagged for a closer look

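The responses below differed between lines by a test of the difference itself (limma, adjusted p under 0.05), given as differences of log2 changes; comparisons against WT share the WT libraries. For starvation, GCN2-deleted line minus WT, they were Phgdh −0.90, Psat1 −0.61, Psph −2.07, Shmt2 −0.90, Mthfd2 −1.26, Mthfd1l −0.66 and Aldh1l2 −2.10. For starvation, PERK-deleted line minus WT, they were Phgdh −0.70, Psat1 −0.27, Psph −1.92, Shmt2 −0.57, Mthfd2 −0.92, Mthfd1l −0.51 and Aldh1l2 −1.21. For starvation, PERK-deleted minus GCN2-deleted line, they were Psat1 0.34, Shmt2 0.32, Mthfd2 0.33 and Aldh1l2 0.90. For thapsigargin, GCN2-deleted line minus WT, they were Psat1 0.40, Mthfd2 0.45 and Aldh1l2 1.17. For thapsigargin, PERK-deleted line minus WT, they were Psph −0.88, Shmt1 −0.39, Shmt2 −0.65, Mthfd2 −0.67 and Aldh1l2 −0.70. For thapsigargin, PERK-deleted minus GCN2-deleted line, they were Phgdh −0.40, Psat1 −0.45, Psph −1.34, Shmt1 −0.39, Shmt2 −0.82, Mthfd2 −1.12, Mthfd1l −0.38 and Aldh1l2 −1.87.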

How the results depend on the processing

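Of 162 results (9 genes in 18 comparisons) 82 passed, and 55 of these passed under every alternative; no passing value changed sign. The pseudocount and the variance trend changed no call. With the replicate block 160 of 162 kept their side, and Mthfd1 fell with starvation in the GCN2-deleted line (−0.14, adjusted p 0.0435) and Phgdh passed for starvation minus thapsigargin in WT (0.35, 0.0323); same-numbered libraries deviated together at a median correlation of 0.00105 (−0.179 to 0.352), so the numbers were not taken to pair them. Counts of the 9 moved as follows. With the other control 1 fell with starvation in the GCN2-deleted line, 1 rose in the PERK-deleted line, and 0 differed between them. When only the groups compared were fitted, 0 rose with starvation in the GCN2-deleted line, 1 rose in the PERK-deleted line, 0 differed between them and 0 were higher in untreated PERK-deleted cells. With median-of-ratios rescaling 5 rose with starvation in the PERK-deleted line. With array weights 5 rose there, 8 responded higher to starvation in the PERK- than in the GCN2-deleted line, 6 responded higher to thapsigargin in the GCN2-deleted line than WT, 4 had the higher response to starvation of the 2 stresses in WT, and with DMSO 1 rose and 3 fell in the GCN2-deleted line and 1 fell in the PERK-deleted line. With no filter 1 rose with thapsigargin in the PERK-deleted line, 3 responded lower there than in WT, and 1 responded higher to starvation in WT. Without the libraries of high microRNA share the last count was 4, and 2 responded higher to starvation in the PERK- than in the GCN2-deleted line. Leaving out single libraries gave 1 to 3 that fell and 0 to 1 that rose with starvation in the GCN2-deleted line, 1 that rose with thapsigargin in the PERK-deleted line, 3 to 5 with a lower thapsigargin response there than in WT, 2 to 4 with a higher starvation response in the PERK- than in the GCN2-deleted line, and 1 to 3 with a higher response to starvation in WT. The causes were not tested. Over all genes, counts moved by over 1.5 times in places: for starvation, from 2012 to 1061 higher and from 2787 to 1101 lower in WT and from 912 to 174 and from 1017 to 114 in the PERK-deleted line (only the groups compared), and from 1878 to 4158 higher and 1952 to 4137 lower in the GCN2-deleted line (array weights); for thapsigargin, from 1835 to 2765 higher and 2383 to 4810 lower in WT and from 400 to 793 and 443 to 1478 in the PERK-deleted line (array weights), and from 1805 to 3178 lower in the GCN2-deleted line (rescaling). With DMSO, array weights gave 3125 higher and 2474 lower in the GCN2-deleted line, against 9 and 13, and leaving out untreated WT replicate 3 gave 132 higher and 1332 lower in WT, against 5 and 8. Array weights also moved the higher and lower responses to thapsigargin of the GCN2-deleted line against WT from 1974 and 302 to 5987 and 1290, those of the PERK-deleted line from 894 and 1176 to 3021 and 2376, and those to starvation of the PERK- against the GCN2-deleted line from 324 and 352 to 2106 and 3211. With only the groups compared, untreated differences from WT moved from 3731 to 2010 lower in the GCN2-deleted line and from 5005 and 2976 to 2989 and 1678 in the PERK-deleted line. TPM keeps no depth, so what depth limits cannot be stated; the labels tie each genotype to 1 line.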
